A study of Mus musculus with 4 samples.

Results

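Immediate early genes were examined in the salivary glands of Nfkbiz-/- and Nfkbiz+/+ mice. The 10 genes described were Fos, Fosb, Jun, Junb, Egr1, Atf3, Zfp36, Ier2, Ier3 and Dusp1, out of 21904 genes on the array. They were chosen by name, with earlier results of the same arrays known, so their difference between genotypes is given as a description and not tested. Each was measured by 1 transcript cluster, a set of 10 probes summarized to a single value, among 22206 clusters.

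Expression was measured on Affymetrix whole-transcript arrays, 1 array per mouse, in 4 mice aged 20 weeks. M47 and M49 were Nfkbiz-/-, lacking IκB-ζ, an inducible regulator of the transcription factor NF-κB. M30 and M55 were Nfkbiz+/+, the wild type. The tissue covered parotid, sublingual and submandibular glands. All mice were noncohoused, that is, kept apart from mice of the other genotype after weaning, and per the methods all were female. The methods describe a 129/Ola × C57BL/6 background, while the label of M47 gives the strain ICR and the other labels give none. In the experiment that these mice belonged to, saliva was drawn at week 20 under isoflurane with pilocarpine, a muscarinic agonist, and the interval between that injection and removal of the glands was not stated there. With 2 mice in each genotype, the smallest 2-sided p of an exact permutation test is 0.333.

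Immediate early genes are transcribed rapidly after a cell receives a stimulus, without the need for new protein, because the factors on their promoters are already present. Growth factor receptors, calcium and stress reach them through MAP kinases, which act on SRF with its ELK partners and on CREB. Most of the transcripts are short-lived, and several of the products, such as ZFP36 and DUSP1, act to end the response. In the salivary gland, as elsewhere, they serve as a record of recent stimulation.

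The members are compact genes. Their span in RefSeq (GRCm38.p6) had a median of 3034 bases and ranged from 1199 bases for Ier3 to 13038 bases, against a median of 17564 bases over 20305 genes, of which 41.8% were shorter than the longest member. Of the 10 genes, 8 were matched in the RefSeq promoter table of GRCm38.p6, and the 250 bases before the start of each were searched. No motif is reported for Jun, Egr1 or Ier2. Most of these were not among the 8 searched, so the counts do not show that their promoters lack a motif. The cyclic AMP response element (CRE) TGACGTCA, read by CREB, was present in 1 of 8, Dusp1, and in 1.55% of 32851 promoters. Its shorter core TGACG, which lies inside the full element and was counted there too, was present in 5 of 8 (Fos, Fosb, Junb, Atf3 and Dusp1) and in 17.8% of all promoters. A CArG box, the element bound by SRF, was present in Zfp36 alone among the 8 and in 1.47% of all promoters. The NF-κB motif was present in 3 of 8 (Fos, Fosb and Ier3) and in 3.90% of all promoters. The EGR motif GCGNGGGCG was present in Fosb and Zfp36, 2 of 8, against 4.70%, TATAAA on the gene strand was present in Fos alone against 7.59%, and the AP-1 motif TGANTCA was present in 0 of 8 against 6.75%. Motifs other than TATAAA were read on both strands. A match describes the letters only. For each member 1 promoter was read, and bases farther from the start were not searched, so a motif counted as absent may lie outside the window.

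The 150 bases just before the start of 4 members are shown, because they hold the CRE, CArG, TATA and NF-κB letters named above. They are written 5′ to 3′ on the strand of the gene, from RefSeq GRCm38.p6, for Fos at chr12:85473740-85473889 (plus strand), Zfp36 at chr7:28379229-28379378 (minus strand), Dusp1 at chr17:26508473-26508622 (minus strand) and Ier3 at chr17:35821563-35821712 (plus strand). Capitals mark TGACG and TATAAA in Fos, the CArG box in Zfp36, the full CRE in Dusp1 and the NF-κB motif in Ier3.
Fos: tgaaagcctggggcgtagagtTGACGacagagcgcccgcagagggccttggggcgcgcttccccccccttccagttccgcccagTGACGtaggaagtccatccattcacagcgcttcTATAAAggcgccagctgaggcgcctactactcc
Zfp36: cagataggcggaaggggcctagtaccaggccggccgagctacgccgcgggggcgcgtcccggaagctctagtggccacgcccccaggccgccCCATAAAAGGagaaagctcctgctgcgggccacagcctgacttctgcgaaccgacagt
Dusp1: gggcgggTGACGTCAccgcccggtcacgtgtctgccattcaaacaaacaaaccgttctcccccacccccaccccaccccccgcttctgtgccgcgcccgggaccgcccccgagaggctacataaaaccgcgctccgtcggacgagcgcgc
Ier3: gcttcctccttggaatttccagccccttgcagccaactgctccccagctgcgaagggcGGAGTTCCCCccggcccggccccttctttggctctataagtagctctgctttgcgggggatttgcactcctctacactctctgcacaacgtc
In Fos the TGACG matches lay 129 to 125 and 66 to 62 bases before the start, and TATAAA lay at 33 to 28. The CArG box of Zfp36 lay at 58 to 49, the CRE of Dusp1 at 143 to 136 and the NF-κB motif of Ier3 at 92 to 83 bases before the start.

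Before the members are described, the arrays themselves are compared. Medians of the log2 RMA values (robust multi-array averages, the deposited normalized scale) lay between 4.83 and 4.89 in the 4 arrays. All 40 values of the members were above the median of their array, and the lowest was 5.09, Ier2 in M30. M55 stood apart in its tissue markers. The mean log2 value of 10 fat cell markers was 3.82 in M47, 4.06 in M49 and 4.43 in M30, and reached 5.79 in M55, and 6 of the 10 were at least 2-fold higher in M55 than in M30. The mean of 10 skeletal muscle markers was 3.89, 3.82 and 3.98 in M47, M49 and M30 and 5.20 in M55. Of these, 5 were at least 2-fold higher in M55 than in M30. Myh4 had the widest M55 minus M30 (4.90), and Actn3 (-0.29) and Myoz1 (-0.31) were lower in M55. Acinar markers, which define the secretory cells of the gland, were present in every mouse. Their means were 11.73, 11.73, 11.78 and 10.94 in M47, M49, M30 and M55. The lower mean of M55 was not shared by the whole list. Of the 10 markers, 3 (Amy1, Smr3a and Prpmp5) were at least 2-fold lower in M55 than in M30. The median M55 minus M30 of the 10 was -0.02, and 4 of the 10 were higher in M55. In whole tissue, fewer cells of a type and less RNA per cell cannot be told apart. The part of these markers in the results was not tested, and the members' differences without M55 and without M30 are given below.

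The members differed more between mice of the same genotype than between the genotypes. The Nfkbiz+/+ mouse M55 was above the Nfkbiz+/+ mouse M30 in 10 of 10 genes, by 1.42 (Fosb) to 4.50 (Egr1) on the log2 scale with a median of 2.58. The Nfkbiz-/- mouse M47 was above M49 in 10 of 10 genes as well, by 0.18 (Junb) to 2.79 (Dusp1) with a median of 0.84. The means of the 2 genotypes differed by 0.59 at most, with a median size of 0.31.

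Fos and Fosb encode the FOS partners of AP-1, a transcription factor made of paired FOS and JUN proteins. Fos (chr12:85473890-85477273, plus strand) had log2 values of 7.92 in M47 and 6.33 in M49 against 6.42 in M30 and 8.59 in M55. Low and high mice were thus found in both genotypes, M49 and M30 being close to each other at the low end. The genotype means were 7.13 ± 1.13 and 7.51 ± 1.54 (SD, n = 2 each), a difference of -0.38 (Nfkbiz-/- minus Nfkbiz+/+), against 4.52-fold between the Nfkbiz+/+ mice and 3.02-fold between the Nfkbiz-/- mice. Fosb (chr7:19302696-19310045, minus strand) had values of 6.60 and 6.31 in M47 and M49 and of 6.04 and 7.45 in M30 and M55. It had the narrowest gap of the 10 between the Nfkbiz+/+ mice, which was still 2.67-fold, and both Nfkbiz-/- mice fell inside it.

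Jun and Junb encode JUN partners of AP-1, of which JUNB can act against JUN. Jun (chr4:95049034-95052222, minus strand) was measured at 9.36 and 8.60 in M47 and M49 and at 7.98 and 10.44 in M30 and M55. The Nfkbiz+/+ mice took the lowest and the highest place, 5.54-fold apart, with the Nfkbiz-/- mice between them, and the means differed by -0.23. Junb (chr8:84974484-84978748, minus strand) showed this most sharply of the AP-1 genes. Its values were 6.99 and 6.81 in M47 and M49, 1.13-fold apart, and 6.06 and 8.75 in M30 and M55, 6.45-fold apart. The difference between genotypes was -0.51, with SDs of 0.13 in Nfkbiz-/- mice and 1.90 in Nfkbiz+/+ mice.

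Egr1 and Atf3 encode further early transcription factors, a zinc finger activator and a basic leucine zipper protein of the stress response. Egr1 (chr18:34859823-34864984, plus strand) had log2 values of 8.70 and 7.49 in M47 and M49 and of 5.26 and 9.76 in M30 and M55. It had the widest gap of the 10 between the Nfkbiz+/+ mice, 22.7-fold, whereas the Nfkbiz-/- mice were 2.31-fold apart. Its mean was higher by 0.58 in Nfkbiz-/- mice, with SDs of 0.85 and 3.18. Atf3 (chr1:191170296-191218039, minus strand) had values of 8.83 and 7.86 in M47 and M49 and of 6.14 and 9.37 in M30 and M55. Again M30 was lowest and M55 highest, 9.37-fold apart. Atf3 was the only member at least 1.5-fold apart between genotypes (difference 0.59, 1.502-fold), and Egr1 lay just outside that limit at 1.495-fold.

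Zfp36, Ier3 and Dusp1 encode products that restrain signalling, and Ier2 encodes a nuclear protein. ZFP36 binds AU-rich elements and speeds the decay of cytokine transcripts. Zfp36 (chr7:28376784-28379255, minus strand) was at 8.10 and 7.28 in M47 and M49 and at 6.01 and 8.89 in M30 and M55. The Nfkbiz+/+ mice were 7.34-fold apart and enclosed the Nfkbiz-/- mice, which were 1.77-fold apart. Ier2 (chr8:84661331-84662852, minus strand), which lies 311632 bases from Junb, was at 6.52 and 5.80 in M47 and M49 and at 5.09 and 7.92 in M30 and M55. The order of the mice was that of Junb, and the genotype means differed by -0.34. Ier3, a regulator of survival and ERK signalling (chr17:35821684-35822923, plus strand), was at 7.54 and 6.68 in M47 and M49 and at 6.01 and 8.34 in M30 and M55. Its means differed by -0.07, while the mice were 5.03-fold apart in Nfkbiz+/+ and 1.82-fold apart in Nfkbiz-/-.

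Dusp1 encodes a phosphatase that inactivates MAP kinases, and its mice ran in another order than those of the genes above. Dusp1 (chr17:26505590-26508519, minus strand) had log2 values of 11.44 in M47 and 8.65 in M49 against 9.14 in M30 and 10.98 in M55. The highest and the lowest mouse were both Nfkbiz-/-, 6.90-fold apart, and the Nfkbiz+/+ mice lay between them, 3.60-fold apart. The genotype means differed by -0.01, with SDs of 1.97 and 1.31.

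**Figure D1:**
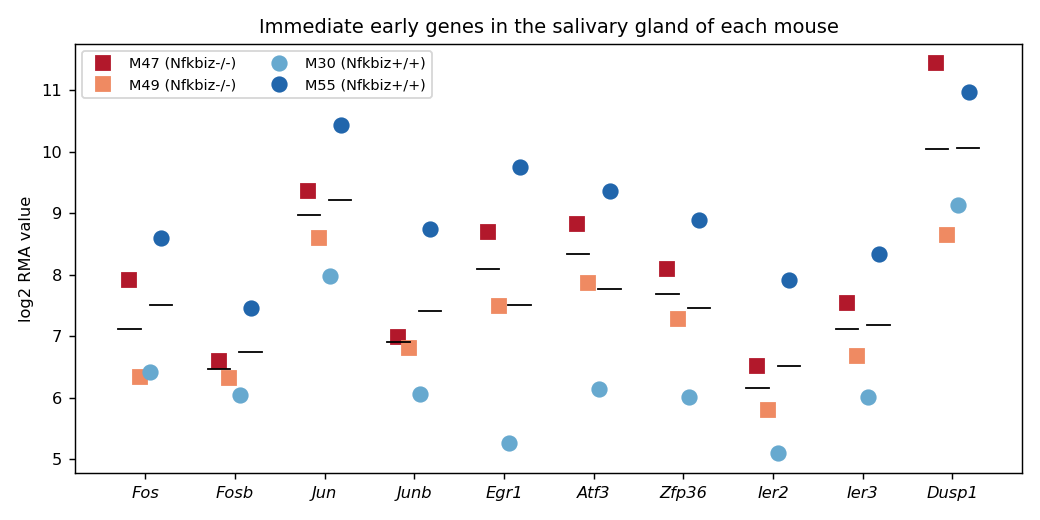
Log2 RMA value of each immediate early gene (horizontal axis) in each of the 4 mice, squares for Nfkbiz-/- and circles for Nfkbiz+/+, with a short line at each genotype mean. M55 is highest in 9 of the 10 genes and M30 is lowest in 8, while M47 lies above M49 in every gene.

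In 8 of the 10 genes the mice ran M30, M49, M47, M55 from low to high, an order held by 4.32% of all clusters. The exceptions were Fos, where M49 was just below M30, and Dusp1. M55 was highest in 9 genes and M30 lowest in 8. Averaged over the 10 genes, the mice had log2 values of 8.20 (M47), 7.18 (M49), 6.41 (M30) and 9.05 (M55), and the genotype means of this average were 7.69 ± 0.72 in Nfkbiz-/- and 7.73 ± 1.86 in Nfkbiz+/+ mice (SD, n = 2 each), a difference of -0.04.

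Set against all 22206 clusters, the genotypes did not overlap in 0 of 10 members and in 39.7% of clusters. The wider of the gaps inside a genotype exceeded the difference between genotype means in 10 of 10 members and in 72.7% of clusters. A 1.5-fold difference was reached upward in Nfkbiz-/- mice by 1 of 10 members and 3.65% of clusters, and downward by 0 of 10 and 4.35%. These counts describe the values that led to the choice of the genes, and nothing is read from them about genotype.

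By the median gap, mice of a genotype were farther apart in the members than over all clusters. This did not hold in every gene, as Junb was 0.18 apart between the Nfkbiz-/- mice. The genes were chosen with results of these arrays known, so the shares here are a description and not a test. M55 was at least 2-fold above M30 in 10 of 10 members and in 1.87% of clusters. M47 was at least 2-fold above M49 in 3 of 10 members, Fos, Egr1 and Dusp1, and in 0.734% of clusters. Both differences were above 0 in 10 of 10 members and in 25.4% of clusters. Over all clusters the median gap was 0.27 between the Nfkbiz+/+ mice and 0.21 between the Nfkbiz-/- mice, against 2.58 and 0.84 in the members, while the median size of the genotype difference was 0.20 over all clusters and 0.31 in the members.

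**Figure D2:**
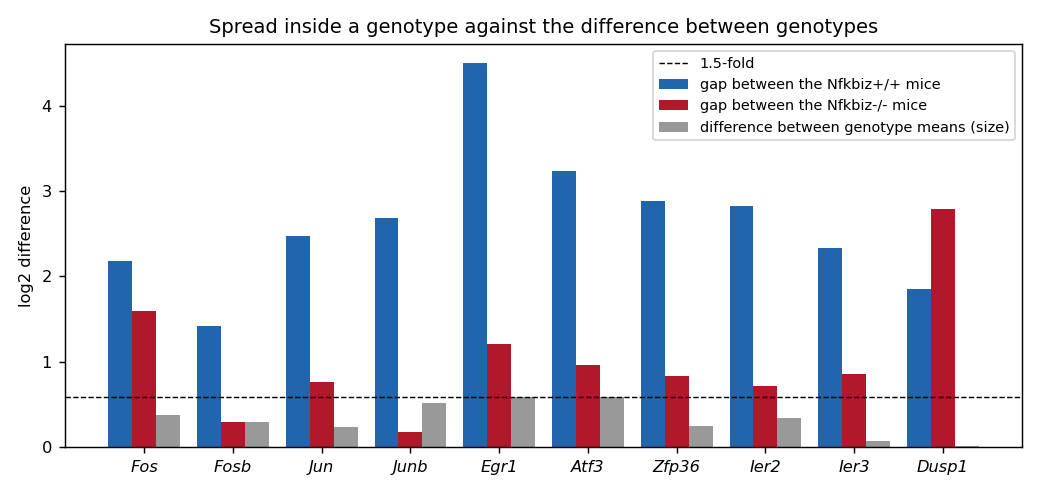
Log2 gap between the Nfkbiz+/+ mice, log2 gap between the Nfkbiz-/- mice and size of the log2 difference between genotype means for each immediate early gene, with a dashed line at 1.5-fold. The Nfkbiz+/+ gap is the longest bar in 9 genes and the Nfkbiz-/- gap is the longest in Dusp1.

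**Figure D3:**
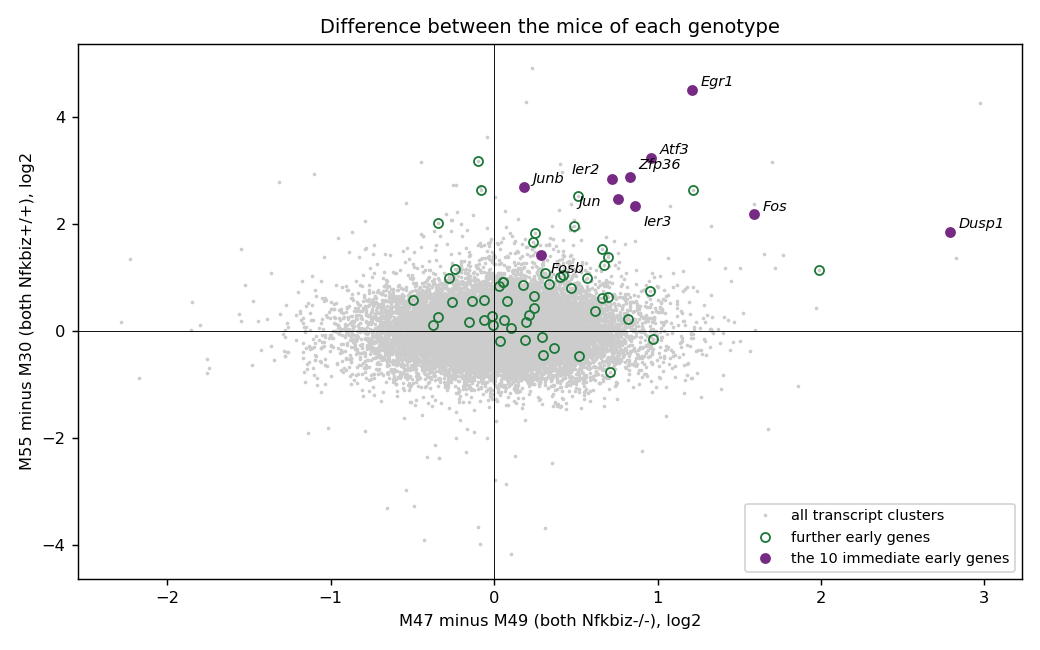
Log2 difference M47 minus M49 (horizontal axis) against M55 minus M30 (vertical axis) for all 22206 clusters in grey, further early genes as open green circles and the 10 immediate early genes in purple. The 10 genes all lie in the upper right part, at 1.42 or more on the vertical axis.

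Because the Nfkbiz+/+ mice enclosed the Nfkbiz-/- mice in most of these genes, the direction of the difference between genotypes depended on which Nfkbiz+/+ mouse was used. Without M30, that is against M55 alone, 10 of 10 members were lower in Nfkbiz-/- mice, by 0.94 (Dusp1) to 1.85 (Junb) in size, with a median difference of -1.35, and all 10 were at least 1.5-fold lower, as were 8.3% of clusters. Without M55, that is against M30 alone, 10 of 10 were higher, from 0.42 (Fosb) to 2.83 (Egr1), with a median of 1.04, and 9 were at least 1.5-fold higher, as were 5.75% of clusters. Leaving out a Nfkbiz-/- mouse moved the median less, though Dusp1 moved more, to -1.41 without M47 and 1.38 without M49. Without M47 their median was -0.55, 9 of 10 were lower and 5 were at least 1.5-fold lower, as were 6.43% of clusters. Without M49 the median was 0.39, 8 of 10 were higher and 4 were at least 1.5-fold higher, as were 5.63% of clusters. The median over all clusters stayed between -0.03 and 0.00 in these settings.

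**Figure D4:**
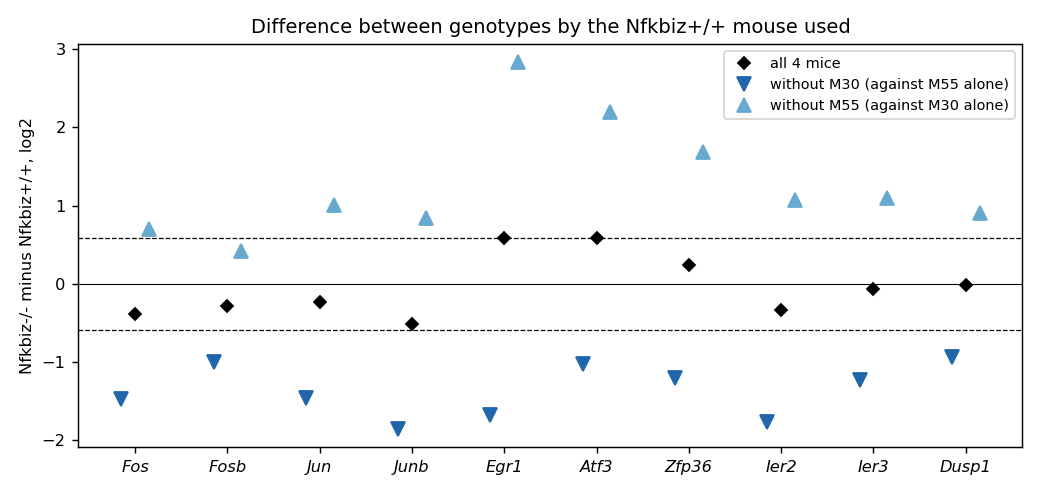
Log2 difference Nfkbiz-/- minus Nfkbiz+/+ of each immediate early gene with all 4 mice (black diamonds), without M30 (dark triangles pointing down) and without M55 (light triangles pointing up), with dashed lines at 1.5-fold. All 10 differences are below 0 without M30 and above 0 without M55.

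The genes most like the members were sought by the root mean square distance between each gene's values, centred on their mean over the 4 mice, and the mean centred values of the members (0.49, -0.53, -1.30 and 1.34 in M47, M49, M30 and M55). The distance of the members themselves ran from 0.12 (Ier3) to 0.73 (Egr1), and the median over all 21904 genes, members included, was 1.02. Nearest was Nfkbia, which encodes the NF-κB inhibitor IκBα, at a distance of 0.21. Its values were 8.63 and 8.16 in M47 and M49 and 7.24 and 9.61 in M30 and M55, the order of the 8 members named above. A like order of the mice follows largely from this way of picking genes, here and in the genes below.

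The predicted gene Gm12888 (0.23), Wsb1, a substrate adaptor of a ubiquitin ligase (0.24), and Mt2, a metallothionein (0.26), followed. Mt2 was at 9.24 and 8.62 in M47 and M49 and at 7.81 and 10.84 in M30 and M55, and Wsb1 was at 6.59 in M49, 5.38 in M30 and 8.35 in M55. In both genes M30 was lowest, M55 was highest and M47 lay between M49 and M55. Nfkbiz itself came next at 0.27, with values of 6.18 and 5.78 in the Nfkbiz-/- mice M47 and M49 and of 5.04 and 7.29 in the Nfkbiz+/+ mice M30 and M55. The values of the targeted gene therefore overlapped between genotypes, and since the sources used here do not place its probes relative to the deleted part, they check no genotype. Klf6 (0.27), Btg2 (0.32) and the tight junction gene Cldn4 (0.33) completed the 8 nearest genes.

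Other early genes were taken from 2 lists made by name. Of 24 further early transcription factors, 0 passed an unadjusted p under 0.05 with a 1.5-fold change by limma in either direction, against 2.93% of clusters higher and 3.69% lower in Nfkbiz-/- mice. After Benjamini-Hochberg adjustment 0 of 22206 clusters had a p under 0.05, 2015 having an unadjusted p under 0.05. The median difference of the list was 0.18 between genotypes, against -0.02 over all clusters. Between the Nfkbiz+/+ mice its median was 0.68, M55 was at least 2-fold above M30 in 8 of 24, and M30 was the lowest of the 4 mice in 17 of 24. The share of all clusters with M30 lowest was not counted. This count and those of the lists below therefore have no background beside them. Nr4a3, an orphan nuclear receptor, was at 9.09 and 9.19 in M47 and M49 and at 6.07 and 9.23 in M30 and M55. M30 alone was low there, and the difference was 1.48 ± 0.84 (SE, adjusted p = 0.644, limma), which became 3.07 without M55 and -0.10 without M30. Klf6, a zinc finger factor, was at 8.47 and 7.96 and at 6.60 and 9.12 in the same order. Its difference was 0.35 ± 0.69 (SE, adjusted p = 0.925, limma), and it was 1.61 without M55 and -0.91 without M30. Nr4a3 and Klf6 were named for a wide gap inside a genotype, so a large change on leaving out 1 mouse was built in.

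Of 30 further early feedback and effector genes, 0 were higher and 1 was lower past both thresholds, Gadd45b, a stress-induced regulator of MAP kinase signalling. Gadd45b was at 4.80 and 5.04 in M47 and M49 and at 5.25 and 6.41 in M30 and M55. Both Nfkbiz-/- mice were below both Nfkbiz+/+ mice, by -0.91 ± 0.36 on average (SE, unadjusted p = 0.0385, adjusted p = 0.522, limma), but it did not pass without M47 (-0.79), without M49 (-1.03), without M55 (-0.33) or by either form of the methods' t-test. The median M55 minus M30 of the list was 0.61, with M55 at least 2-fold above M30 in 8 of 30 and M30 lowest in 20 of 30. Plk2, a polo-like kinase, was at 5.49 and 5.57 in M47 and M49 and at 3.12 and 5.75 in M30 and M55, and Btg2, an antiproliferative regulator of mRNA decay, was at 9.66 and 8.44 and at 7.15 and 9.77. Neither passed the test (adjusted p = 0.697 and 0.875, limma), and without M55 the differences were 2.41 and 1.90. Plk2 and Btg2 were also named for a wide gap inside a genotype. In the counts that follow, the genotype left with 1 mouse has no spread of its own. Without M55, 10 of the 24 transcription factors and 7 of the 30 effector genes were higher past both thresholds, as were 4.61% of clusters (1024). Without M30, 3 of each list were lower, as were 7.14% of clusters (1586).

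The inputs of the response were measured in the same way. Over all clusters, 2.93% were higher and 3.69% were lower past both thresholds, shares that stand beside the list counts here and below. Of 14 factors that bind early gene promoters, 1 was higher and 0 were lower in Nfkbiz-/- mice, with a median M55 minus M30 of 0.03. The higher one was Elk4, an ETS partner of SRF, at 7.62 and 7.52 in M47 and M49 and at 6.40 and 6.53 in M30 and M55. The mice of each genotype lay close together and the genotypes did not overlap, with a difference of 1.10 ± 0.20 (SE, unadjusted p = 0.00077, adjusted p = 0.468, limma). Srf, named for its gap inside a genotype, was at 6.35 and 6.24 in M47 and M49 and at 5.48 and 6.38 in M30 and M55. M30 was the low mouse, and the difference of 0.36 became 0.81 without M55. Of 31 genes of the Ras and MAP kinase pathway, 1 was higher and 2 were lower, with a median M55 minus M30 of 0.13. They included Nf1, encoding a Ras GTPase-activating protein, higher by 0.74 ± 0.22 (SE, adjusted p = 0.468, limma), and Rasa1, encoding another, at -0.83 ± 0.22 (SE, adjusted p = 0.468, limma). Nf1 did not pass without M49 (0.68), without M30 (0.55) or by either form of the methods' t-test, and Rasa1 did not pass by the form with unequal variances.

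The outputs that ZFP36 and DUSP1 restrain were also read. Of 11 cytokine and inflammatory genes, 0 passed in either direction, with a median difference of 0.16. Their mean log2 values were 3.94, 3.74, 3.37 and 4.06 in M47, M49, M30 and M55, below the median of each array. M30 was the lowest mouse in 9 of 11, in some by little, as in Il6 (2.04 against 2.06 in M55). The median M55 minus M30 of the list was 0.13. Tnf, whose transcript is a known target of ZFP36, was at 5.74 in M47 and 4.03 in M49. In M30 it was at 2.99 and in M55 at 6.15. Tnf was below the median of the array in M49 and M30. It held the order of the 8 members, with a difference of 0.31 ± 0.95 (SE, adjusted p = 0.953, limma), which was 1.89 without M55 and -1.26 without M30. Ccl3, a macrophage chemokine, was at 2.69 and 3.56 and at 2.02 and 3.86, with all values below the median of the array. Its difference of 0.19 became 1.11 without M55. Tnf and Ccl3 were named for a wide gap inside a genotype.

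Stress genes of other pathways were read beside them. Of 13 heat shock genes 0 passed in either direction, M55 was at least 2-fold above M30 in 1 of 13, and M30 was lowest in 4 of 13. M55 was above M30 in 11 of 13, with a median M55 minus M30 of 0.43. The mean of the heat shock list was highest in M55, at 7.44. Of 11 genes of the ATF4 stress response 0 were higher and 1 was lower, Nupr1, at -0.89 ± 0.26 (SE, adjusted p = 0.468, limma). Nupr1 was at 10.17 and 9.85 in M47 and M49 and at 10.63 and 11.17 in M30 and M55, so that both Nfkbiz-/- mice were below both Nfkbiz+/+ mice, but it did not pass without M49 (-0.73) or by either form of the methods' t-test. Atf4 itself was at 7.95 and 8.59 and at 7.57 and 8.99, with a difference of -0.01. The median M55 minus M30 of the ATF4 list was 0.34, with M55 above M30 in 6 of 11 and at least 2-fold above in 1 of 11.

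Markers of the cells of the gland ordered the mice in several ways. Macrophage markers had mean log2 values of 5.86, 5.72, 5.04 and 5.47 in M47, M49, M30 and M55, T cell markers of 5.36, 4.82, 4.39 and 4.83, and duct markers of 9.01, 8.82, 8.62 and 9.13. The means of these lists were lowest in M30. By single genes, M30 was the lowest mouse in 5 of 8 macrophage, 3 of 7 T cell and 3 of 10 duct markers. The T cell mean was carried by Cd3e, a subunit of the T cell receptor complex, and without it the means of the 6 others were 4.55, 4.41, 4.35 and 4.15, lowest in M55 (a mean added after the values were seen). Markers of neutrophils ranged from 3.34 to 3.49, below the lower quartile (3.44 to 3.53) of 3 of the 4 arrays. Markers of endothelium (4.40, 4.23, 4.09 and 4.44) also had M30 lowest and M55 highest. Red blood cell markers, at 7.50 in M30 and 7.15 in M55, were higher in both Nfkbiz+/+ mice than in both Nfkbiz-/- mice, where the lowest mean was 5.15 in M47. The part of any of these lists in the levels of the immediate early genes was not tested.

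**Figure D5:**
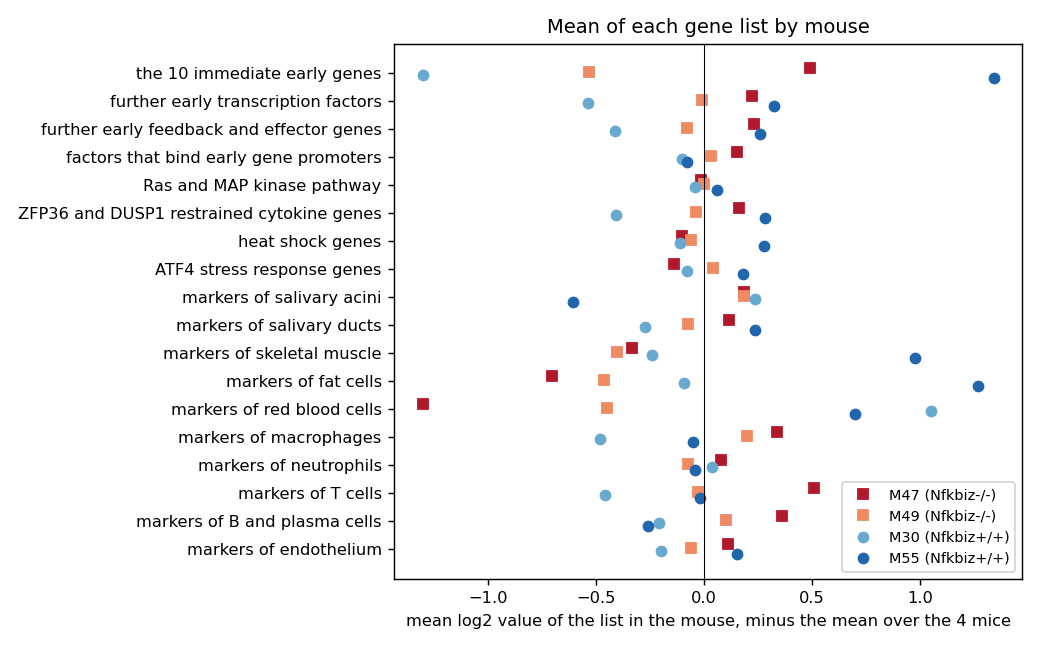
Mean log2 value of each gene list in each mouse, minus the mean of the list over the 4 mice (horizontal axis), squares for Nfkbiz-/- and circles for Nfkbiz+/+. The 10 immediate early genes range from -1.30 in M30 to 1.34 in M55. The means of the fat and muscle markers are highest in M55. The mean of the acinar markers is lowest in M55, where 3 of the 10 are at least 2-fold below M30.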

How the data were processed

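Total RNA from a piece of the salivary glands of 4 mice, 2 per genotype, was labelled by the authors with the WT PLUS kit and hybridized at Macrogen. The deposited log2 values were made by the authors in Affymetrix Power Tools with RMA at gene level, which corrects the background, normalizes the arrays by quantiles and summarizes the probes. They were used as deposited, and the 2 deposited tables differed at 0 of 22206 clusters. The authors' fold changes, p-values, group means, SDs and GO and KEGG tables were not used. The version of the annotation and its genome build are not given in the sources used here, and all 10 positions printed overlapped the gene's RefSeq position in GRCm38.p6. Arrays carry no read depth, and their number limits the precision.

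Genotypes were taken from the labels. The members and lists were chosen with earlier results of these data known, so members were described without a test. A gene with several clusters was represented by the one with the highest mean. Other genes were fitted over all clusters in limma 3.58.1 under R 4.3.3, by lmFit followed by eBayes (2 residual and 5.53 prior degrees of freedom, Benjamini-Hochberg adjustment), and called where the unadjusted p was under 0.05 and the change at least 1.5-fold. The script was tested on simulated data. Nothing says whether RNA extraction or hybridization was batched. The limma p-values rest on the spread between these mice and, with more degrees of freedom, on variance shared over all clusters. Named were all members; of each list up to 4 genes past both thresholds and up to 2 others with the widest gap inside a genotype, not all of which are reported here; and the 8 nearest genes. Promoters were read with pandas 2.3.3. Of 12 acinar and 8 T cell markers 10 and 7 were matched, and all other listed genes were found. Tried as alternatives were both forms of the methods' t-test (equal or unequal variances), median-centred arrays, quantile normalization again, a variance trend with intensity, clusters above the median signal, a 2-fold threshold and leaving out each mouse.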

Additional observations from a re-analysis of the deposited data

How the results depend on the processing

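Leaving out a mouse in turn gave 4 to 10 members at least 1.5-fold apart (1 with all mice), 1 to 9 members with no overlap (0 with all mice) and 2 to 10 members with a wider gap inside a genotype (10 with all mice, 2 without M30 and 2 without M55). Part of this is built in, since 1 mouse has no gap and overlaps less often: over all clusters, no overlap rose from 39.7% to between 66.0% and 73.7%, and a wider gap fell from 72.7% to between 45.2% and 54.9%. The median difference of the members was -0.15 and ran from -1.35 without M30 to 1.04 without M55. Median centring or quantile normalization again gave 2 members at least 1.5-fold apart.

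Clusters past both thresholds numbered 1471 (651 higher, 820 lower), 212 by the methods' t-test with unequal variances (107 higher, 105 lower), 475 with equal variances (227 and 248), 901 among clusters above the median signal (383 and 518), 200 at 2-fold (130 and 70) and 1122 to 2690 without 1 mouse, the highest being without M30. The further early transcription factors past both thresholds numbered 0, and 1 with an intensity trend or median centring, 2 with quantile normalization again and 1 to 10 without 1 mouse (10 without M55). The feedback and effector genes numbered 1, and 0 by both t-tests and at 2-fold, 2 with quantile normalization again and 0 to 7 without 1 mouse (7 without M55). Without 1 mouse the promoter factors numbered 1 to 2 (1 in all), the cytokine genes 0 to 2 (0 in all), the heat shock genes 0 to 2 (0 in all) and the ATF4 genes 0 to 2 (1 in all). The Ras and MAP kinase genes numbered 3, 1 by the t-test with unequal variances and 0 at 2-fold, and the ATF4 genes 0 by both t-tests and at 2-fold. Klf6, named for its wide gap inside a genotype, was at 0.35, turned to -0.91 without M30 and was at 1.61 without M55. The causes were not tested.

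A genotype left with 1 mouse was assumed to vary like the other. No paired analysis was possible because the genotypes share no replicate number.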
